A study of Mus musculus with 9 samples.

Results

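Matrix metalloproteinases (Mmp genes), the ADAMTS proteinases and the related ADAMTS-like proteins (Adamts and Adamtsl genes), and the tissue inhibitors of metalloproteinases (Timp genes) were followed in mouse conjunctiva, the mucous membrane around the front of the eye. Members were taken by symbol, as every gene of the count table whose name starts with Mmp or Timp and a digit, or with Adamts. This gave 45 of 20603 genes: 17 Mmp, 19 Adamts, 5 Adamtsl and 4 Timp genes. Of the 45, 39 had enough counts to be tested (15 Mmp, 15 Adamts, 5 Adamtsl and 4 Timp genes). Adamts13, Adamts16, Adamts18, Adamts19, Mmp7 and Mmp8 did not pass the filter on low counts, and a member could also pass it through a single group in which it was high.

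Matrix metalloproteinases are zinc enzymes made as inactive precursors, which cut collagens, laminins and other matrix proteins and also release or inactivate cytokines. ADAMTS enzymes cut proteoglycans or trim procollagens and carry thrombospondin repeats that hold them in the matrix, while the ADAMTS-like proteins share those repeats but lack the catalytic domain. TIMPs bind the active site of these enzymes and block it, and TIMP3 differs from the other TIMPs in being held in the matrix and in also blocking several ADAM and ADAMTS enzymes. On the eye surface, MMP9 and MMP3 are known as products of inflamed or stressed epithelium and of infiltrating cells.

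The study compared 3 groups of 3 libraries, each library made from the pooled conjunctiva of 3 mice on a C57BL/6J background. Control mice were Vegfr3 fl/fl littermates of the knockouts, which carried Vegfr3 fl/fl;Prox1CreERT2 (Vegfr3iLECko). In these a tamoxifen-dependent Cre under Prox1, a lymphatic endothelial gene, removes Vegfr3, the receptor encoded by Flt4. Controls as well as knockouts received tamoxifen in week 5 (5 intraperitoneal injections of 75 mg/kg) and were immunized in week 6 with 250 µg ovalbumin (OVA), 0.3 µg PTX and 5 mg aluminum hydroxide. The challenged groups then had OVA drops (250 µg in 5 µL) in the right eye every day for 28 days, starting 14 days after immunization, and the left eye had saline. The unchallenged controls were immunized and not challenged, and the labels do not say which eye or which animals they came from. There was no unchallenged knockout group. Libraries are numbered 1 to 3 within a group as in the labels, and values are given in that order.

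Total counts were 16490050 to 24746836 per library, and the members together took 0.226% to 0.415% of them. Levels are given as CPM, the count per 1000000 counts of the scaled library total. All 9 conjunctival epithelium markers were found, with summed levels of 19043 to 34649.7 CPM. Flt4 was at 13.4 to 26.8 CPM in the 6 control libraries and at 13.0, 5.07 and 5.32 CPM in the knockouts, so knockout 1 lay just under the lowest control. Challenged control 1 stood apart: in 499 genes (3.2% of those tested) its level was at least 2 times that of the next-highest library. In bulk tissue, fewer cells of a type and less RNA per cell cannot be told apart, and this holds for every value that follows.

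A run of 10 Mmp genes lies side by side on chromosome 9, in the order Mmp13, Mmp12, Mmp1b, Mmp3, Mmp1a, Mmp10, Mmp8, Mmp27, Mmp20 and Mmp7. Of these, 6 are in the count table, and Mmp1a, Mmp1b, Mmp10 and Mmp20 are not analysed here. The run holds collagenases, some of the stromelysins and the macrophage elastase, and their promoters are known for an AP-1 site, bound by Fos and Jun proteins, near a TATA box. The RefSeq start regions (GRCm38.p6, 250 bases before to 50 after each listed start) were searched for TGAGTCA or TGACTCA, the same AP-1 motif read on either strand, and for TATAAA on the gene's own strand. The letters of the motifs do not overlap. The stretches below run from 100 bases before to 10 bases after the start, 5′ to 3′ on the gene's strand, with the matched AP-1 and TATAAA letters in capitals. Mmp13, Mmp12, Mmp3 and Mmp7 are shown as the members with both motifs, and Adamts1 as the member with TATAAA alone that was highest over the other libraries in challenged control 1. The motifs and that library did not go together throughout: Mmp8 and Mmp25 were also high there and their listed promoters hold neither, and Mmp7 had 3 counts there.
Mmp13 (chr9:7272414-7272523, plus strand): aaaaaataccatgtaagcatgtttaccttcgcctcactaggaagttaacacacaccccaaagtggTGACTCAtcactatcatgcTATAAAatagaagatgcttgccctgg
Mmp12 (chr9:7347274-7347383, plus strand, second of the 2 listed starts): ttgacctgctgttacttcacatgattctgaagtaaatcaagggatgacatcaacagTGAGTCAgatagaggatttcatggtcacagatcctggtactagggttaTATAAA
Mmp3 (chr9:7445722-7445831, plus strand): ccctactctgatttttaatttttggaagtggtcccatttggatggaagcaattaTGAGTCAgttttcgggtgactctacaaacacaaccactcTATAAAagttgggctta
Mmp7 (chr9:7691990-7692099, plus strand): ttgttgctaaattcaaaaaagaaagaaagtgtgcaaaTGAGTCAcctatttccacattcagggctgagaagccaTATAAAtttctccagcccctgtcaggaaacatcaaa
Adamts1 (chr16:85803104-85803213, minus strand): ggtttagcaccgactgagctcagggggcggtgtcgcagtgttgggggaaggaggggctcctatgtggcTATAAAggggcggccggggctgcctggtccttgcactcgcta
The AP-1 letters begin 35 bases before the start in Mmp13, 44 in Mmp12, 46 in Mmp3 and 63 in Mmp7. TATAAA begins 16 bases before the listed start in Mmp13, 7 in Mmp3, and 123 and 26 in Mmp7. In Mmp12 it begins after the listed start, at base 5. RefSeq listed promoters for 30 of the 45 members. Of their 33 promoters, 4 (12.1%) held the AP-1 letters, against 5.2% of all 32851 promoters, and 6 (18.2%) held TATAAA, against 8.32%. Both were present in 4 (12.1%), against 0.624% of all promoters. In the run of 10, counting the genes not analysed here, 7 genes held AP-1, 8 held TATAAA and 7 held both. Outside it, none of the 24 members with a listed promoter held the AP-1 letters, and Adamts1 and Adamtsl2 held TATAAA. A match is a string of letters and no measured site, and these windows say nothing of sites farther away.

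**Figure D1:**
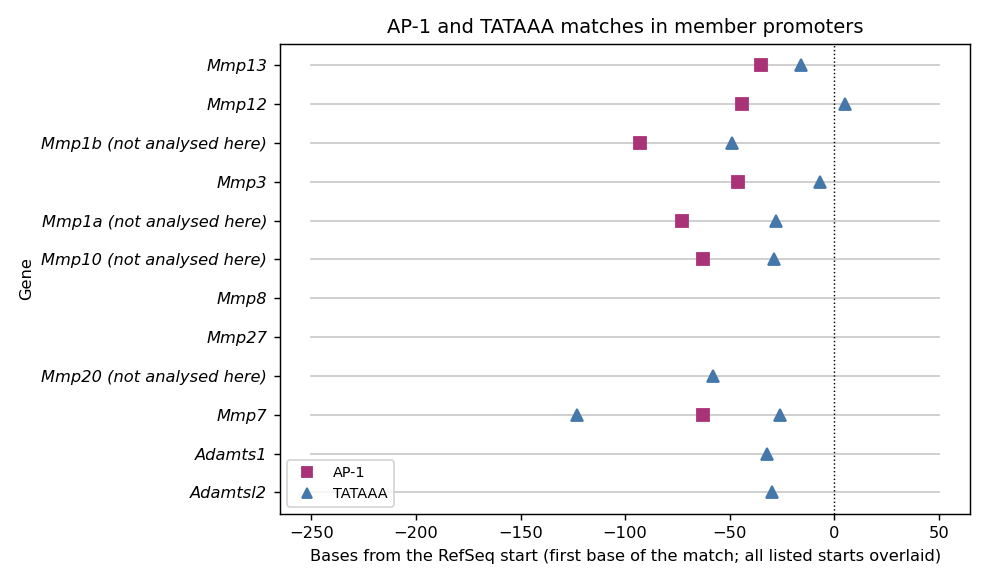
Positions of AP-1 letters (squares) and TATAAA (triangles) in bases from the RefSeq start, for the 10 neighbouring Mmp genes of chromosome 9 in genome order and for Adamts1 and Adamtsl2; each line is the window searched. The 7 genes with both motifs all lie in the Mmp run, and most matches fall within 100 bases before the start.

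To compare levels between genes, CPM was divided by the length of a gene's exons in kilobases (CPM per kb, averaged over the 9 libraries). Timp2, an inhibitor that also takes part in activating MMP2 on the cell surface, was highest at 277.4 CPM per kb. Mmp2, a gelatinase of stromal cells, followed at 169.7 CPM per kb, and Mmp3 (stromelysin 1) had 95.7 CPM per kb. Mmp14, the membrane enzyme that activates MMP2, stood at 72.1 CPM per kb, and its relative Mmp15 at 43.8 CPM per kb. Of the ADAMTS-like genes, Adamtsl4, known for fibrillin fibres of the lens ligament, had 34.5 CPM per kb and Adamtsl5 had 32.5 CPM per kb. Of the catalytic ADAMTS genes, Adamts1 had 17.4 CPM per kb and Adamts2, a procollagen N-proteinase, had 11.3 CPM per kb. Without challenged control 1 the order was the other way, at 9.85 CPM per kb for Adamts1 and 11.6 for Adamts2. At the low end, Adamts13, the plasma enzyme that cuts von Willebrand factor, had 9 counts in all 9 libraries together, Adamts16 and Adamts18 had 12 each, Adamts19 had 54 and Mmp7 (matrilysin) had 57.

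Members also differed in how steady they were between libraries. Over all 9 libraries the coefficient of variation was 11.7% for Mmp14 and for Mmp28, 16.1% for Mmp11 and 16.4% for Adamtsl4. Among the tested members with the widest spread it was 170% for Adamts4, 131% for Adamts1, 111% for Mmp25 and 107% for Mmp13. The steady genes include the membrane activator and the epithelial Mmp28, and these 4 wide-ranging ones were all highest in challenged control 1. That library was the highest of the 9 for 12 of the 39 tested members (30.8%) and for 22.3% of all genes, and knockout 3 was the lowest for 9 members (23.1%) and for 12.2% of all genes.

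**Figure D2:**
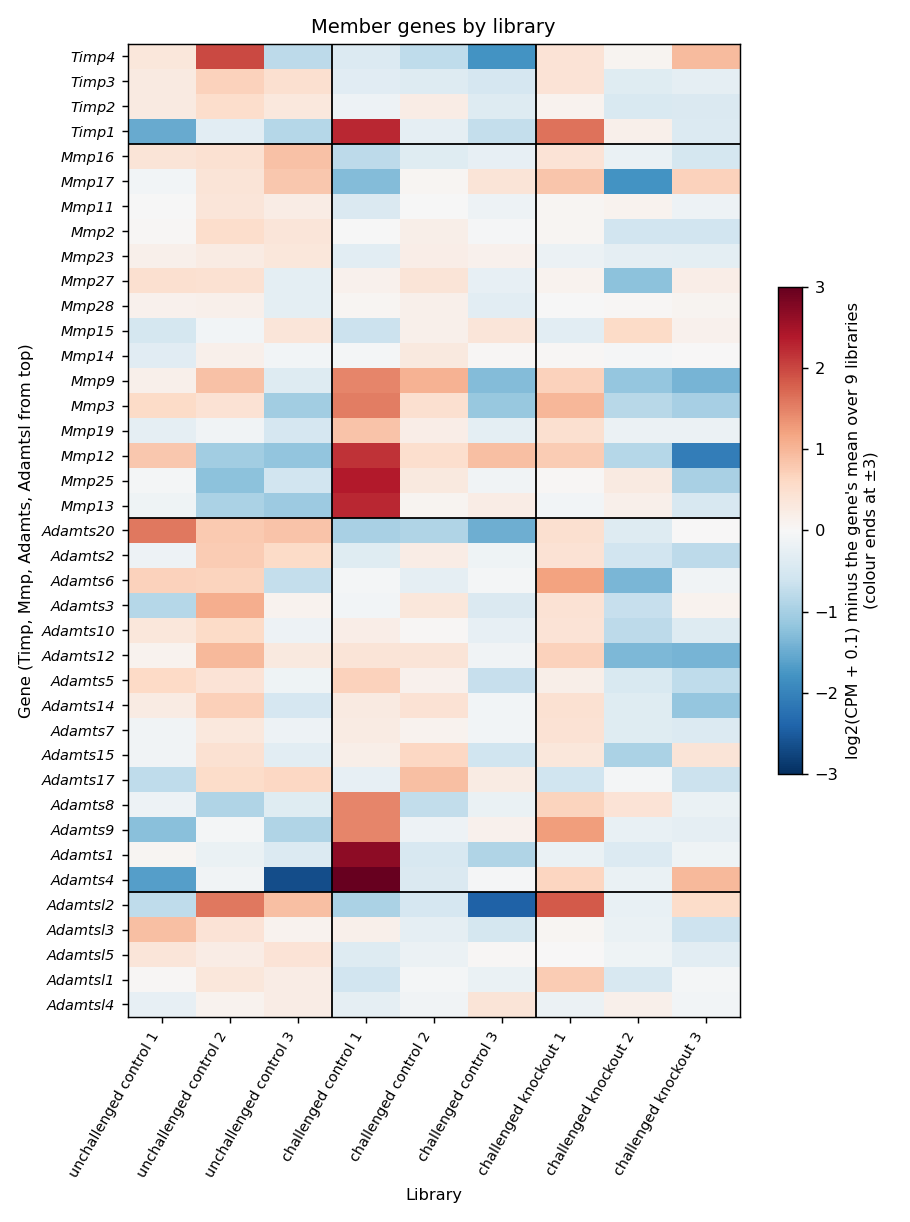
The 39 tested members (Timp, Mmp, Adamts and Adamtsl from top, each ordered by the challenge difference) in the 9 libraries, as log2(CPM + 0.1) minus the gene's mean over the libraries; colours end at ±3. Adamts1 and Adamts4 are deepest red in challenged control 1, and Timp3 and Adamts20 are blue in all 3 challenged controls.

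Challenged and unchallenged controls were compared to ask what repeated allergen drops did to these genes. Under challenge, Timp2, Timp3, Mmp16, Mmp11, Adamts20, Adamtsl1 and Adamtsl5 were lower in every challenged than in every unchallenged control, and Mmp13 was higher. None of the 39 members passed an adjusted p of 0.05 by edgeR's quasi-likelihood test, where 10 genes (0.064%) did, and the lowest adjusted p of a member was 0.101 (Adamts20). With the replicate number as a block, 267 genes (1.71%) passed and again none of the members, at a lowest adjusted p of 0.0575. By DESeq2, 750 genes (4.82%) did, and 4 of the 38 members with an adjusted p (Adamts1 had none). The 4 were Timp3 (adjusted p = 0.00647), Adamts4 (0.0144), Adamts20 (0.0243) and Mmp13 (0.0462). By edgeR the adjusted p was 0.118 for Timp3, 0.233 for Adamts4, 0.101 for Adamts20 and 0.221 for Mmp13. With 1 library left out, the edgeR value reached 0.427, 0.890, 0.364 and 0.735 in the same order, and DESeq2 was not rerun in this way. An unadjusted p under 0.05 was reached by 12 members (30.8%), 5 higher and 7 lower, against 12.4% of all genes (6.77% higher and 5.65% lower). The 5 higher were Adamts4, Adamts9, Mmp13, Mmp25 and Timp1, each highest in challenged control 1. Without that library their log2 differences were 0.90, 0.67, 0.87, 0.69 and 0.34. Groups did not overlap for 8 members (20.5%), against 15.7% of all genes: 1 higher (background 7.21%) and 7 lower (background 8.5%). Of the 39, 16 (41%) had a difference above 0, against 48.5% of all genes. The median log2 difference was -0.14 over the members and -0.011 over all genes, with 0.05 for Mmp, -0.02 for Adamts, -0.50 for Adamtsl and -0.68 for Timp genes. The median size of the difference, whatever its sign, was 0.50 for the members and 0.23 for all genes.

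Of the inhibitors, Timp3 had the smallest unadjusted p. It had 174, 231 and 198 CPM without challenge, 113, 109.9 and 101 CPM in the challenged controls, and 189, 112 and 119 CPM in the knockouts. Every challenged control lay below every unchallenged one, with little spread among the challenged controls, and knockout 1 lay among the unchallenged libraries. The log2 difference under challenge was -0.90 (SE 0.21, adjusted p = 0.118, edgeR), and it was -0.99 to -0.79 when any 1 library was left out. With the block fitted in the 2 control groups alone the adjusted p was 0.0313, in a fit that called 476 genes (3.12%). Timp2 had 1203, 1441 and 1244 CPM without challenge, 897, 1173 and 760.3 CPM in the challenged controls and 1070.3, 730.2 and 743 CPM in the knockouts. All 6 challenged libraries were below the 3 unchallenged ones, although challenged control 2 came within a few percent of them, and the log2 difference in controls was -0.46 (SE 0.23, adjusted p = 0.471, edgeR).

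Timp1, the inducible and soluble inhibitor, had 1.88, 4.44 and 3.04 CPM without challenge, 27.0, 4.57 and 3.37 CPM in the challenged controls and 17.4, 6.19 and 4.17 CPM in the knockouts. Only replicate 1 of each challenged group was far above the unchallenged range. The log2 difference in controls of 1.88 (SE 0.82, adjusted p = 0.384, edgeR) was 0.34 without challenged control 1. Timp4, known from heart and fat, had 1.83, 5.97 and 0.787 CPM without challenge, 1.05, 0.807 and 0.342 CPM in the challenged controls and 1.95, 1.53 and 2.86 CPM in the knockouts. The unchallenged libraries spread widely and overlapped the challenged controls, while each knockout was above each challenged control. The challenged controls held 17, 18 and 6 counts of Timp4. Timp1, Timp3 and Timp4 lie inside the genes Syn1, Syn3 and Syn2 on the opposite strand. Only Timp4 shares exon bases with its host, 90 of them or 1.5% of its exons, so that a count without strand could mix the 2 genes there.

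**Figure D3:**
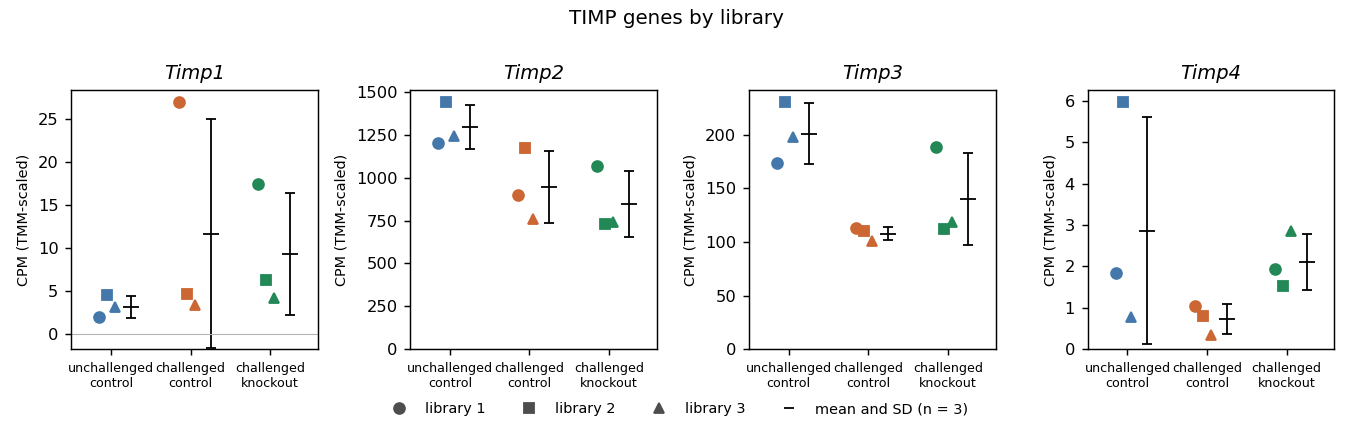
CPM of the 4 TIMP genes in each library (circle, square and triangle for libraries 1, 2 and 3), with group mean and SD (n = 3); each panel has its own axis. Timp3 is 101 to 113 CPM in the challenged controls against 174 to 231 CPM without challenge, and Timp1 is high only in library 1 of each challenged group.

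Summed per kb, the 4 inhibitors made up 0.863, 0.864 and 0.920 of the summed Mmp genes in the unchallenged controls. The same ratio was 0.538, 0.711 and 0.633 in the challenged controls and 0.721, 0.714 and 0.761 in the knockouts. All 3 unchallenged libraries were above the 6 challenged ones. Group means were 0.882 ± 0.0325, 0.627 ± 0.0865 and 0.732 ± 0.0250 (SD, n = 3). Timp2 alone was 81.6% to 91.7% of the inhibitor sum, so the ratio mainly followed Timp2 and the abundant Mmp genes. The ratio was chosen after the values were seen, and no test was made of it.

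Of the enzymes of stroma and membrane, Mmp2, Mmp14 and Mmp15 overlapped between all groups, and Mmp16 did not overlap between the control groups. Mmp2 had 523, 726 and 656 CPM in the unchallenged controls, 507, 576 and 498 CPM in the challenged controls and 533, 343 and 338 CPM in the knockouts. Challenged control 2 and knockout 1 lay within the unchallenged range, and the other 2 knockouts were the lowest of all libraries. Its log2 difference was -0.27 (SE 0.22, adjusted p = 0.716, edgeR) under challenge and -0.38 (SE 0.22, adjusted p = 0.676) between genotypes. Mmp14 ranged from 239 to 332 CPM without challenge, from 288 to 367 CPM in the challenged controls and from 290.5 to 307 CPM in the knockouts. Mmp15 ranged from 151 to 281, from 139 to 279 and from 173 to 321 CPM in the same groups. The levels of these 2 membrane enzymes in challenged and unchallenged controls differed by log2 values of 0.18 (SE 0.17) and 0.05 (SE 0.32). Mmp16, a rarer membrane enzyme, had 2.77, 2.95 and 3.99 CPM without challenge, 1.18, 1.61 and 1.77 CPM in the challenged controls and 2.84, 1.83 and 1.43 CPM in the knockouts. All challenged controls were below all unchallenged ones (log2 difference -1.09, SE 0.38, adjusted p = 0.259, edgeR). Mmp11, a stromal enzyme also called stromelysin 3, had 5.02, 6.55 and 5.88 CPM without challenge and 3.71, 5.02 and 4.56 CPM in the challenged controls, a log2 difference of -0.39 (SE 0.25, adjusted p = 0.622). Its control groups met within rounding at 5.02 CPM. The summed fibroblast markers, 8 of 8 found, were at 1786 to 2653 CPM without challenge, 1554 to 2107 CPM in the challenged controls and 935 to 2004 CPM in the knockouts. Fibroblast markers thus spread over ranges that overlap, as Mmp2 does, and their part in these values was not tested.

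A second set of proteinases was high in challenged control 1. In 5 of the 39 tested members (12.8%, against 3.2% of all genes) that library was at least 2 times the next-highest of all 9: Adamts1, Adamts4, Mmp12, Mmp13 and Mmp25. Adamts1, an inducible proteoglycan-cutting enzyme, had 62.2, 51.8 and 44.8 CPM without challenge, 381, 42.9 and 31.7 CPM in the challenged controls and 51.7, 44.9 and 54.7 CPM in the knockouts. Challenged controls 2 and 3 were below all unchallenged libraries, so the log2 difference of 1.52 (SE 0.77, adjusted p = 0.484, edgeR) became -0.50 without challenged control 1. Adamts4, an aggrecanase, had 0.733, 2.34 and 0.315 CPM without challenge, 29.3, 1.84 and 2.45 CPM in the challenged controls and 4.01, 2.18 and 5.09 CPM in the knockouts. Its log2 difference of 3.27 (SE 1.09, adjusted p = 0.233) was 0.90 without that library.

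Mmp13, the main interstitial collagenase of mice, had 1.62, 0.881 and 0.787 CPM without challenge, 8.97, 1.88 and 2.11 CPM in the challenged controls and 1.67, 2.01 and 1.26 CPM in the knockouts. All challenged controls were above the unchallenged ones, libraries 2 and 3 by little (log2 difference 1.97, SE 0.64, adjusted p = 0.221, edgeR; 0.87 without challenged control 1). Mmp12, the elastase of macrophages, had 4.87, 1.26 and 1.155 CPM without challenge, 12.7, 3.90 and 5.19 CPM in the challenged controls and 4.67, 1.47 and 0.572 CPM in the knockouts. Each challenged control was above the unchallenged control of the same number. Unchallenged control 1 and knockout 1 overlapped the challenged controls. The log2 difference of Mmp12 was 1.58 (SE 0.81, adjusted p = 0.497, edgeR). With the block fitted in the 2 control groups the adjusted p was 0.0374. Without the block it reached 0.905 with 1 library left out, and the fit with the block was not rerun in this way. Mmp25, a membrane enzyme of leukocytes, had 3.66, 1.57 and 2.52 CPM without challenge, 20.3, 4.75 and 3.54 CPM in the challenged controls and 3.93, 4.600 and 1.89 CPM in the knockouts. Challenged control 3 lay within the unchallenged range (log2 difference 1.88, SE 0.67, adjusted p = 0.264; 0.69 without challenged control 1).

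Mmp8, the collagenase of neutrophils, was not tested, and it showed the same library. It had 3, 5 and 3 counts without challenge, 130, 4 and 0 counts in the challenged controls and 52, 6 and 1 counts in the knockouts. Replicate 1 of both challenged groups had 52 or more counts, and the other 7 libraries had 0 to 6. Mmp3 had 209, 188 and 67.2 CPM without challenge, 401, 195 and 63.7 CPM in the challenged controls and 277, 78.4 and 69.9 CPM in the knockouts. In all 3 groups replicate 1 was highest and replicate 3 lowest, and the log2 difference under challenge of 0.50 (SE 0.71, adjusted p = 0.880, edgeR) was -0.26 without challenged control 1. Mmp9, the second gelatinase and the one studied most in inflamed eyes, had 21.04, 35.0 and 14.4 CPM without challenge, 52.4, 38.8 and 7.59 CPM in the challenged controls and 30.8, 8.43 and 7.15 CPM in the knockouts. The 3 groups overlapped, with challenged control 3 below every unchallenged library (log2 difference 0.48, SE 0.71, adjusted p = 0.886). Adamts9 was at 1.47, 3.45 and 1.89 CPM without challenge, 10.2, 3.27 and 3.99 CPM in the challenged controls and 8.84, 3.07 and 2.97 CPM in the knockouts, high in replicate 1 of both challenged groups. Mmp19 had 16.3, 18.2 and 13.9 CPM, 35.8, 22.5 and 16.03 CPM, and 27.3, 17.3 and 17.3 CPM in these groups, and 22.8% of its exon bases are shared with Tmem198b on the opposite strand.

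**Figure D4:**
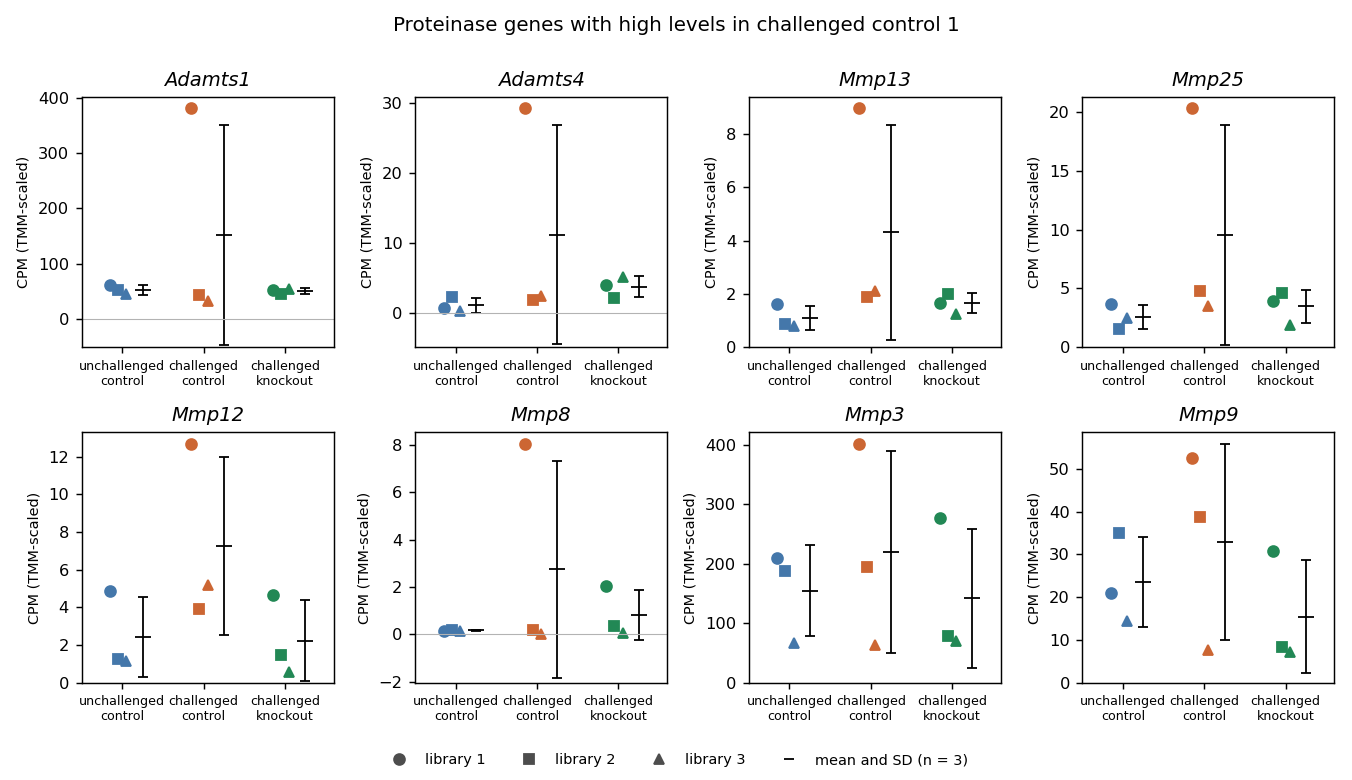
CPM of 8 proteinase genes in each library (circle, square and triangle for libraries 1, 2 and 3), with group mean and SD (n = 3); each panel has its own axis and bars can reach below 0. The circle of the challenged control group is the highest point in each panel, at 381 CPM for Adamts1 and 8.04 CPM for Mmp8.

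Of 15 cytokines and transcription factors listed as inducers of such enzymes, 11 had their highest level in challenged control 1. That library was the highest for 22.3% of all tested genes. Of the 15, 13 were tested and 0 passed in either direction (median log2 difference 1.31). The summed level was 617 to 719 CPM without challenge, 1776, 800.3 and 881 CPM in the challenged controls and 698 to 986 CPM in the knockouts. Il1b, an inflammatory cytokine, was at 0.630 to 2.41 CPM without challenge, 355, 5.51 and 1.60 CPM in the challenged controls and 1.26 to 14.7 CPM in the knockouts. Il6 had no counts without challenge and was at 78.4, 0.224 and 0.228 CPM in the challenged controls, and Osm had 21.7, 0.717 and 0.970 CPM there. The AP-1 subunits did not all follow that library. Fos was at 19.1 to 35.9 CPM without challenge, 145, 32.8 and 37.2 CPM in the challenged controls and 38.2, 65.4 and 52.5 CPM in the knockouts. Junb was at 151 to 246 CPM without challenge, 400.0, 276 and 311 CPM in the challenged controls and 218, 378 and 429 CPM in the knockouts. Jun was at 205 to 220.1 CPM, 231, 213 and 228 CPM, and 173, 269.8 and 274 CPM in the same order. For Junb and Jun the highest library was thus knockout 3, and not challenged control 1.

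The summed neutrophil, macrophage, eosinophil and T cell markers were also highest in challenged control 1, but some were high in other libraries as well. The summed neutrophil markers (9 of 10 in the table, Elane absent, and Mpo at 0 in one whole group) were at 196 to 309 CPM without challenge. They were at 1159, 602 and 408 CPM in the challenged controls and at 682, 350 and 331 CPM in the knockouts. Most of that sum was Ltf, at 181 to 221 CPM without challenge, 744, 527 and 382 CPM in the challenged controls and 295 to 406 CPM in the knockouts. In challenged controls 2 and 3, S100a8, S100a9, Csf3r and Cxcr2 were not above the unchallenged range. In knockout 1 they were above it, at 41.7, 156, 49.6 and 20.9 CPM, and in knockouts 2 and 3 they were not. S100a9 was higher in knockout 1 than in challenged control 1 (150 CPM). Retnlg was above the unchallenged range in challenged controls 2 and 3, at 6.01 and 2.74 CPM against at most 1.20 CPM. Of the 6 neutrophil markers tested, 0 passed, and with the block Ltf and Retnlg did. The 10 macrophage and monocyte markers summed to 484 to 775 CPM, 601 to 1128 CPM and 514 to 782 CPM in the same order, with 0 of 10 passing. Of 8 T cell markers, 3 rose with challenge (Cd8a, Cd8b1 and Lck), or 7 with the block. All 8 were higher in every challenged than in every unchallenged control, against 7.21% of all genes. All 8 were also lower in every knockout than in every challenged control, against 6.24% of all genes. Of 3 eosinophil markers tested 0 passed, or 2 with the block (Ccr3 and Siglecf). The part of these cells, or of the one library, in the proteinase levels was not tested.

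Of the 5 ADAMTS-like genes, none passed the test under challenge, and 2, Adamtsl5 and Adamtsl1, were lower in every challenged than in every unchallenged control. Adamtsl5 had 87.3, 79.1 and 90.0 CPM without challenge, 52.1, 59.8 and 69.5 CPM in the challenged controls and 68.2, 62.0 and 55.0 CPM in the knockouts. All 6 challenged libraries lay below all 3 unchallenged ones (log2 difference in controls -0.50, SE 0.15, adjusted p = 0.195, edgeR). Adamtsl1 had 30.5, 37.9 and 34.9 CPM without challenge, 19.8, 28.4 and 25.9 CPM in the challenged controls and 50.8, 21.4 and 28.7 CPM in the knockouts. Its control groups did not overlap (log2 difference -0.48, SE 0.29, adjusted p = 0.597), and knockout 1 was the highest of all libraries. Adamtsl3 had 17.1, 12.2 and 9.82 CPM, 10.3, 7.62 and 6.33 CPM, and 9.50, 7.96 and 5.89 CPM in these groups, with all knockouts below the unchallenged range. Adamtsl4 ranged from 116 to 161, from 113 to 180.3 and from 122 to 153 CPM and overlapped throughout (log2 difference -0.01, SE 0.20).

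Adamts20, known from pigment cell development, had 1.20, 0.651 and 0.682 CPM without challenge, 0.124, 0.135 and 0.0570 CPM in the challenged controls and 0.506, 0.236 and 0.343 CPM in the knockouts. The 3 groups formed separate ranges, with the knockouts between, but the challenged controls held only 2, 3 and 1 counts, none above the level of 3 counts (0.134 to 0.186 CPM). The size of a fold against them cannot be read at this depth. The fitted log2 difference, which rests on those 6 counts, was -2.92 (SE 0.63, adjusted p = 0.101, edgeR) under challenge and 1.73 (SE 0.66, adjusted p = 0.512) between genotypes. Adamtsl2, a binder of fibrillin and latent TGF-beta proteins, had 0.576, 3.33 and 2.05 CPM without challenge, 0.495, 0.717 and 0.114 CPM in the challenged controls and 4.05, 0.885 and 1.60 CPM in the knockouts. Every knockout was above every challenged control, while unchallenged control 1 lay among the challenged controls (log2 difference under challenge -2.14, SE 0.84, adjusted p = 0.317). The challenged controls held 8, 16 and 2 counts of Adamtsl2, and library 3 was under its level of 3 counts (0.171 CPM). The size of the Adamtsl2 differences thus rests on few counts.

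Skeletal muscle markers were, like Timp4, Adamtsl2 and Adamts20, lower in the challenged controls than in the knockouts. Their sum (9 of 10 in the table, Tnnc2 absent) was 844, 3592 and 1787 CPM without challenge, 536, 421 and 230.4 CPM in the challenged controls and 1896, 1516 and 2466 CPM in the knockouts. None of 9 passed, or 2 with the block under challenge. Of the 9, 8 were lower in every challenged than in every unchallenged control, against 8.5% of all genes. All 9 were higher in every knockout than in every challenged control, against 6.7% of all genes. The 6 adipocyte markers summed to 18.9 to 78.5 CPM, 4.33 to 12.1 CPM and 27.2 to 47.9 CPM in the same order, with 0 of 5 tested passing, or 3 with the block. Unchallenged control 2, the highest library for these muscle and fat sums, was also the highest for Timp4 at 5.97 CPM. Of the unchallenged libraries it was the highest for Adamtsl2 (3.33 CPM) but the lowest for Adamts20 (0.651 CPM). Adamts20 was highest in unchallenged control 1 (1.20 CPM), where the muscle sum was lowest of that group. Among the knockouts, Adamtsl2 and Adamts20 were highest in knockout 1, and Timp4 and the muscle sum in knockout 3. The part of muscle or fat in the dissected tissue in these members' values was not tested.

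The other members showed overlapping control groups. Adamts2 had 69.1, 131 and 115 CPM without challenge, 60.4, 90.4 and 70.2 CPM in the challenged controls and 105, 51.6 and 44.7 CPM in the knockouts. Adamts5, an aggrecanase beside Adamts1 on chromosome 16, had 96.6, 84.5 and 58.8 CPM, 103, 69.4 and 39.8 CPM, and 72.6, 46.7 and 37.9 CPM in these groups. It was not high like its neighbour in challenged control 1, where it stood 1.07 times above the next library and Adamts1 6.12 times. Adamts17 had 0.576, 1.57 and 1.68 CPM, 0.866, 2.06 and 1.25 CPM, and 0.662, 1.003 and 0.629 CPM. Mmp23 had 24.0, 25.7 and 27.4 CPM, 17.3, 24.9 and 23.6 CPM, and 19.2, 18.0 and 17.7 CPM, so that the knockouts lay below all unchallenged libraries. Of the members not yet described, Adamts15 (mean 43.7 CPM in the challenged controls) was the most abundant, and Adamts3, Adamts6 and Mmp17 were at most 3.66 CPM in any library. Adamts7, Adamts8, Adamts10, Adamts12, Adamts14, Mmp27 and Mmp28 lay between 0.842 and 18.7 CPM. Of these, Adamts8 and Mmp28 share 13.5% and 12.3% of their exon bases with a gene on the opposite strand.

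Knockouts and challenged controls were compared to ask what loss of Vegfr3 in lymphatic endothelium did under challenge. Adamts20, Adamtsl2 and Timp4 were higher in every knockout than in every challenged control, and no member was lower in every knockout. None of the 39 members passed an adjusted p of 0.05 by edgeR, nor did any gene (0%), although 1325 genes (8.49%) and 2 members (5.13%; Adamts20 and Adamtsl2, both higher, background 3.95%) had an unadjusted p under 0.05. By DESeq2 231 genes (1.51%) passed and 0 of the 37 members with an adjusted p. Adamts20 and Adamts1 had no adjusted p by DESeq2. With the block 22 genes (0.141%) and 0 members passed. Groups did not overlap for 3 members (7.69%), all higher, against 12.9% of all genes, 6.7% in the higher and 6.24% in the lower direction. The median log2 difference was -0.15 for the members and 0.00 for all genes, with 13 members above 0 (33.3%, against 50.4% of all genes) and 26 below. Adamtsl2 had the smallest unadjusted p (log2 difference 2.28, SE 0.84, adjusted p = 0.505), followed by Adamts20. Both had few counts in the challenged controls (8, 16 and 2 for Adamtsl2, and 2, 3 and 1 for Adamts20).

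Several of the largest negative differences between genotypes came with challenged control 1 and were smaller or of the other sign without it. Adamts1 had a log2 difference of -1.59 (SE 0.77, adjusted p = 0.623, edgeR), and 0.43 without challenged control 1. Adamts4 had -1.56 (SE 1.01), and 0.81 without it. Mmp13 had -1.38 (SE 0.62), and -0.28 without it, and Mmp25 had -1.45 (SE 0.66), and -0.26 without it. For Mmp12 the difference was -1.67 (SE 0.81, adjusted p = 0.624), and -0.998 without that library. Timp3 was 0.38 higher on the log2 scale (SE 0.21, adjusted p = 0.673), with knockouts 2 and 3 close to the challenged controls and knockout 1 above them.

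**Figure D5:**
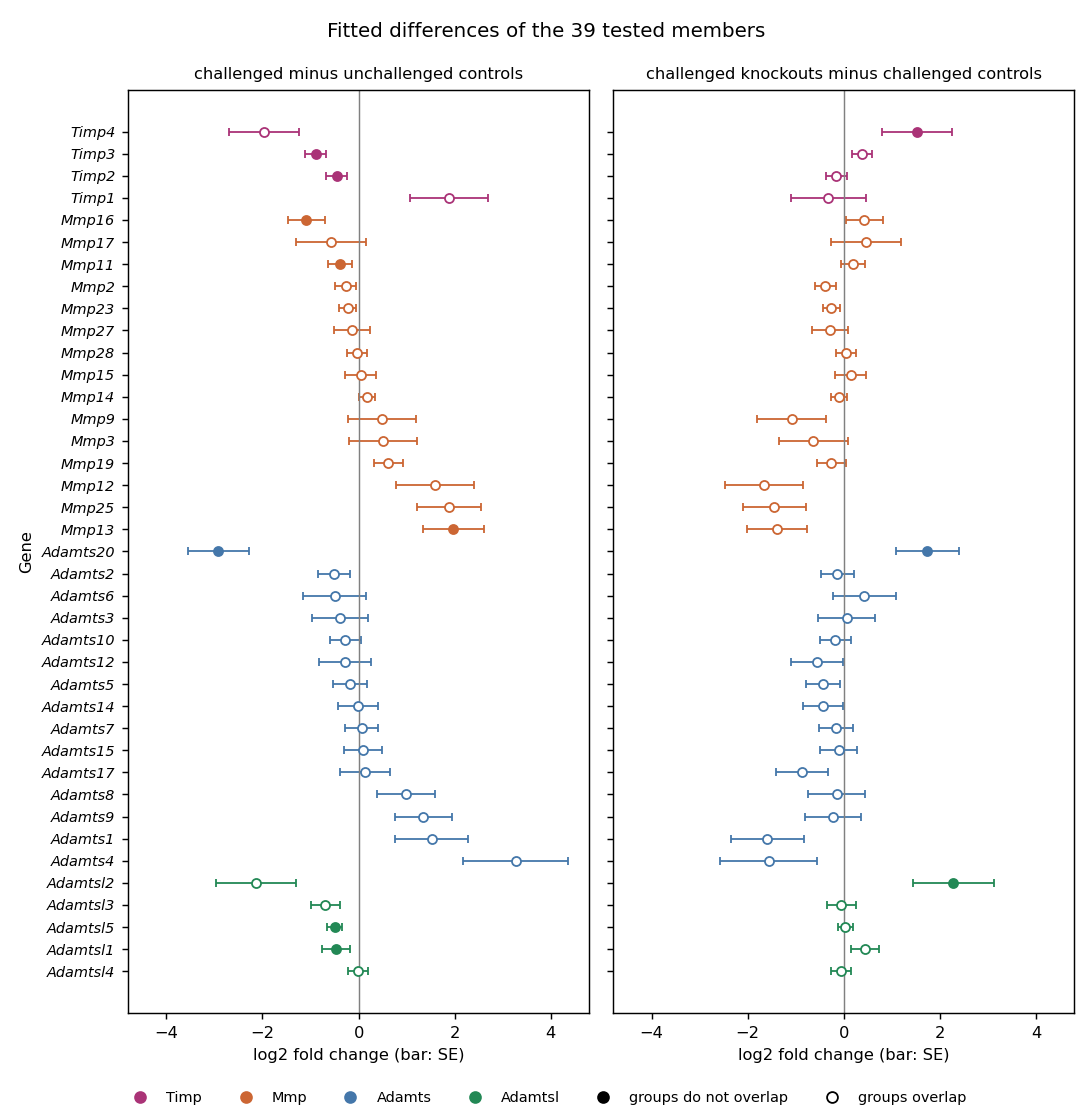
Fitted log2 differences of the 39 tested members with their SE (edgeR), for challenged minus unchallenged controls (left) and challenged knockouts minus challenged controls (right); filled points mark groups that do not overlap. The values run from -2.92 (Adamts20, with 1 to 3 counts per challenged control) to 3.27 (Adamts4) on the left, and the 3 filled points on the right are Adamts20, Adamtsl2 and Timp4; both panels share the challenged controls.

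Set against the unchallenged controls, the challenged knockouts differed in genotype as well as in challenge. Adamts20, Adamtsl3, Adamtsl5, Mmp23 and Timp2 were lower in every knockout than in every unchallenged control. These 5 members compare with 6.59% of all genes that did not overlap and 3.33% that were lower. None of the members and no gene (0%) passed an adjusted p of 0.05 by edgeR. By DESeq2 14 genes (0.09%) passed and 0 of the 38 members with an adjusted p. An edgeR unadjusted p under 0.05 was reached by 452 genes (2.9%) and 6 members (15.4%). The 6 were all lower in the knockouts (background 1.65%): Adamtsl3, Adamtsl5, Mmp2, Mmp23, Timp2 and Timp3. The log2 differences were -0.61 for Timp2 (SE 0.23), -0.65 for Mmp2 (SE 0.22) and -0.52 for Timp3 (SE 0.21), each with an adjusted p of 0.999.

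Related genes outside the members were counted by the same test, which 10 genes (0.064%) of all passed under challenge. Of 18 genes of MMP activation and pericellular proteolysis, 0 passed in either direction under challenge, or 1 with the block, Ctss (adjusted p = 0.0323). Ctss, a cathepsin of antigen-presenting cells, had 91.4, 49.0 and 42.6 CPM without challenge, 228, 126 and 135 CPM in the challenged controls and 85.8, 91.9 and 100.3 CPM in the knockouts. The challenged controls were above all other libraries. The most abundant of that list, Ctsb, had 769 to 811 CPM without challenge and 850.3 to 996 CPM in the challenged controls. Reck, a membrane inhibitor of MMPs, had 122, 95.6 and 91.6 CPM against 55.2, 85.4 and 62.5 CPM, so that every challenged control was below every unchallenged one, as for Timp2 and Timp3 (log2 difference -0.61, SE 0.28, adjusted p = 0.416, edgeR). Of the 18 genes, 4 were lower in this way (Pcsk5, Pcsk6, Reck and Serpine2), against 8.5% of all genes. Another 4 were higher in every challenged control, against 7.21% of all genes.

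Of 15 other secreted and membrane metalloproteinases tested, 0 passed. Adam8, a leukocyte ADAM, did not overlap at 18.3, 39.5 and 17.7 CPM without challenge against 123, 52.0 and 62.2 CPM in the challenged controls (log2 difference 1.65, SE 0.40, adjusted p = 0.121, edgeR). Of 22 matrix substrates, 0 passed and the median log2 difference was -0.26. Col3a1, the most abundant, had 1475, 3925 and 3549.6 CPM without challenge, 1846, 3239.7 and 2872 CPM in the challenged controls and 2619, 1432 and 897 CPM in the knockouts. The 3 groups overlapped, and knockouts 2 and 3 were at the low end for Col3a1 as for Mmp2 and Timp2. Of the remaining marker lists, 0 genes passed under challenge for fibroblasts (8 tested), smooth muscle and pericytes (6), conjunctival epithelium (9), corneal epithelium (2), lymphatic endothelium (7), blood endothelium (7) and the meibomian gland (1).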

How the data were processed

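RNA of 9 pools of conjunctiva was sequenced and the authors deposited whole-number counts per gene. Per the submitters' processing notes, HISAT2, Bowtie2 and DESeq2 were used with the mouse build mm39. The sources used here do not give their versions, the counting program or its strand setting. Counts were modelled in R 4.3.3 with edgeR 4.0.16 (filterByExpr, TMM factors, quasi-likelihood fit of the 3 groups over all 9 libraries), and p-values were adjusted by the Benjamini-Hochberg method over 15613 genes at 0.05. The SE of a log2 fold change is its size divided by the square root of the F statistic. Levels are CPM, counts per 1000000 of a library's TMM-scaled total. Totals were 16490050 to 24746836 counts, so a count of 3 is 0.115 to 0.186 CPM. Each group has 3 libraries, each a pool of 3 mice per the labels' protocols, so p-values measure the spread between pools. The fit takes the groups as separate, and the labels do not say whether the unchallenged pools came from other mice than the challenged ones.

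Values in every library are given for the Timp genes, for members past the threshold, for the 10 other members of at least 1 CPM with the smallest unadjusted p in each of the challenge and genotype comparisons, and for the 3 members of Mmp, Adamts and Adamtsl with the highest CPM. Adamts20, Mmp3, Mmp8, Mmp11, Mmp23 and the singled-out genes of the pathway and marker lists were chosen after their values were seen. The members and lists were chosen with earlier results of these data known. Same-numbered unchallenged and challenged control libraries deviated from their group means together (r = 0.458, 0.245 and 0.488), which is the basis for treating those numbers as pairs. For the knockouts, r with the same-numbered library was 0.318, -0.0889 and 0.334 (unchallenged controls) and 0.339, -0.147 and 0.334 (challenged controls). Their numbers were therefore not taken as pairs. The replicate block over all 9 libraries nevertheless used the knockouts' numbers, and only the block in the 2 control groups left them out. Pairs of libraries within a group differed beyond sampling noise (chi-square per degree of freedom 29.26 to 95.13), so none was counted as a copy. Exon lengths came from GENCODE M21, promoters from RefSeq GRCm38.p6. Alternatives were DESeq2 1.42.0, other scaling factors, no filter, the replicate block, only the groups compared, and each library left out.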

Additional observations from a re-analysis of the deposited data

How the results depend on the processing

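Of 476 alternative values for single members under challenge, 452 kept their direction and their side of the threshold, 18 changed sign and 6 became called; between genotypes 419 of 447 kept both and 28 changed sign. The number of genes called under challenge was 10, and 750 by DESeq2, 20 without a filter, 267 with the replicate block, 476 with the block in the 2 control groups, 1 with only the groups compared, and 0 to 121 with 1 library left out. Called members numbered 4 by DESeq2 and 2 with the block in the 2 control groups, against 0. Between genotypes 231 genes were called by DESeq2 and 22 with the block, against 0, and for knockouts against unchallenged controls 14 by DESeq2, against 0. The replicate block changed no other call of a member.
With both challenged replicate 1 libraries left out, a setting chosen after seeing the data, the challenge log2 difference changed sign for Adamts1 (-0.50), Adamtsl4 (0.12), Mmp3 (-0.25) and Mmp9 (-0.013), and the genotype one for Adamts1 (0.41), Adamts4 (0.76), Adamtsl1 (-0.12), Adamtsl5 (-0.14), Mmp16 (-0.054) and Timp1 (0.38). With upper quartile scaling Mmp15 changed sign under challenge (-0.00227). With 1 library left out, the challenge difference ranged over 0 for Adamts1 (-0.50 to 1.996), Adamts17 (-0.28 to 0.38), Adamts5 (-0.55 to 0.11), Adamtsl4 (-0.23 to 0.13), Mmp15 (-0.17 to 0.30), Mmp3 (-0.26 to 0.94) and Mmp9 (-0.016 to 0.95). The genotype difference did so for Adamts1 (-2.06 to 0.43), Adamts2 (-0.61 to 0.090), Adamts4 (-2.06 to 0.81), Adamts9 (-0.94 to 0.46), Adamtsl3 (-0.22 to 0.16), Adamtsl4 (-0.20 to 0.16), Adamtsl5 (-0.067 to 0.15), Mmp14 (-0.18 to 0.010), Mmp15 (-0.10 to 0.36), Mmp19 (-0.51 to 0.10), Mmp3 (-1.56 to 0.13), Timp1 (-1.16 to 1.22) and Timp2 (-0.35 to 0.038). The cause was not tested. A level of 3 counts is 0.115 to 0.186 CPM. The size of a fold against libraries at or below it, as for Adamts20 and for Adamtsl2 in challenged control 3, cannot be read at this depth.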
